A study of Mus musculus with 15 samples.

Results

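The major histocompatibility complex (MHC) and antigen presentation genes were the 53 of 54390 annotated mouse genes whose symbol starts with H2- (45 genes) or is B2m, Tap1, Tap2, Tapbp, Cd74, Ciita, Nlrc5 or Erap1 (8 genes). They were read out in BV2, an immortalized mouse microglial line used as a macrophage model, by RNA sequencing of 15 libraries. Wild-type cells (WT) and cells labelled Trem2KO (Trem2-/-) were kept in media alone (non-foamy) or were given 20 ug/mL soluble cholesterol overnight (foamy), with 4 libraries for each condition except Trem2-/- without cholesterol, which had 3. Trem2 encodes a lipid-sensing receptor of macrophages and microglia. According to the methods, the knockout cells came from a Cas9-expressing BV2 clone that received a guide RNA against Trem2, and single cells were then expanded. The sources do not say how many knockout clones were sequenced, whether the WT cells carried Cas9, or whether the libraries of a group came from separate cultures, so the p-values measure the spread between these libraries, and an effect of the genotype cannot be told apart from a difference between cell clones.

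MHC class I molecules show peptides from inside the cell to CD8 T cells. Each consists of a heavy chain, encoded in the mouse by classical (H2-K1, H2-D1) or non-classical (H2-Q, H2-T, H2-M) genes, and beta2-microglobulin (B2m). The Tap1 and Tap2 transporter brings peptides into the endoplasmic reticulum, Erap1 trims them and tapasin (Tapbp) helps to load them, and Nlrc5 is the main transcriptional activator of these genes. MHC class II molecules show peptides from ingested material to CD4 T cells. Their chains (H2-Aa, H2-Ab1, H2-Eb1) are guided by the invariant chain (Cd74) and loaded by H2-DM, their transcription depends on the co-activator Ciita, and resting microglia are known for low class II levels.

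Depth and identity of the libraries were checked first. Each library held 23538963 to 41683825 counted reads, so that 3 counts, the limit that a count of 0 allows, corresponded to 0.0669 to 0.132 CPM (read counts divided by library size with TMM factors). That limit covers counting error only. Trem2 itself was at 327 to 415 CPM in the 8 WT libraries and at 214 to 232 CPM in the 7 Trem2-/- libraries. The transcript was thus lower but present in cells labelled as knockout. The paper reports that loss of the Trem2 protein was checked by flow cytometry, and RNA counts do not measure the protein. Of 13 macrophage and microglia markers, 9 exceeded 1 CPM in every library, whereas the microglial genes Tmem119 (at most 0.728 CPM), Sall1 (0 in all libraries), Cx3cr1 and P2ry12 did not. Mean Cx3cr1 was 1.54 and 1.02 CPM in WT and 0.300 and 0.507 CPM in Trem2-/- cells (non-foamy and foamy), and mean P2ry12 was 1.74 and 1.76 CPM against 0.598 and 0.810 CPM, so that the means of this pair were lower in Trem2-/- cells. The summed level of these 13 markers was 3848 to 4743 CPM in WT and 5766 to 6164 CPM in Trem2-/- libraries, in the opposite direction. Of 6 dendritic cell markers 1 (Itgax) exceeded 1 CPM in every library, with means of 57.3 and 66.8 CPM in WT and 103.8 and 93.8 CPM in Trem2-/- cells, and Ccr7 was at 0 in all libraries. Their sum was 48.0 to 82.5 CPM in WT and 82.9 to 108 CPM in Trem2-/- libraries. The 4 T cell markers summed to 0.484 to 1.26 CPM in WT and 1.15 to 3.09 CPM in Trem2-/- libraries, mostly from Cd4. The 5 B cell markers summed to 0.311 to 0.703 CPM in WT and 0.217 to 1.06 CPM in Trem2-/- libraries, mostly from Cd79b (6 to 36 counts per library), with Ms4a1 and Pax5 at 0, and the 5 fibroblast markers were at 0 in all libraries. The macrophage and dendritic cell sums did not overlap between the genotypes, the T cell sums did, and all 3 ranges lay higher in Trem2-/- cells, as did many genes described here. Their part in those results was not tested. In bulk RNA of a cell line, fewer cells that express a marker and less of its RNA per cell cannot be told apart.

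Of the 53 genes, 24 passed the filter on low counts and were tested. Of the others, 15 had no count in any of the 15 libraries and 14 were counted but too low to test, with 1 to 71 counts over all libraries and at most 0.342 CPM in a library. The genes without a count were the 5 class II chain genes (H2-Aa, H2-Ab1, H2-Ea, H2-Eb1, H2-Eb2), the class II pseudogenes H2-Pa and H2-Pb, and 8 non-classical class I genes and pseudogenes. H2-Ea is annotated as a polymorphic pseudogene. Among the 24, 20 had at least 10 counts in every library, and the exceptions were H2-DMa, H2-Q10, H2-T10 and H2-M2.

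The stretches before the transcription start of 4 genes show what letters they share and where they differ. They were chosen because B2m and H2-T22 were higher in Trem2-/- cells, H2-K1 was not called and H2-Aa had no count. The sequences are RefSeq promoter windows on GRCm38.p6, read 5′ to 3′ on the gene's strand. They are limited to the stretch that no annotated exon covers. Capitals mark the letters CCAAT (Y box), GAAANNGAA (a form of the core of the interferon-stimulated response element), and the NF-kappaB-like GGGNNTTTC or GGGNNNTCC. Each was searched on both strands.
B2m, chr2:122147437-122147685, plus strand: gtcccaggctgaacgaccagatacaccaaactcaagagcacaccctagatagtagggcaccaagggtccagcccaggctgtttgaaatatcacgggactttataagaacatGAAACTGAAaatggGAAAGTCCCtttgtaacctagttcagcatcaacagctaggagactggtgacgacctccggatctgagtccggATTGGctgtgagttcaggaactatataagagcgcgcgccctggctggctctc
H2-T22, chr17:36042748-36042960, minus strand: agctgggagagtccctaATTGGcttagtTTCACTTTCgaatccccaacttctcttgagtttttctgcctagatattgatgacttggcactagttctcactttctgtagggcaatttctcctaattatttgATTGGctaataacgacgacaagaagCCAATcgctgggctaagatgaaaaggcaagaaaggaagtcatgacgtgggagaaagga
H2-K1, chr17:34000348-34000597, minus strand: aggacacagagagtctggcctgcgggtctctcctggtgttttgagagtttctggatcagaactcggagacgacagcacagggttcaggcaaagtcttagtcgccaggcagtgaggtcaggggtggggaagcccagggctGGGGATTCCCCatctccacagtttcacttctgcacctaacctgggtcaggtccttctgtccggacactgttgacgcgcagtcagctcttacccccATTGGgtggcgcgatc
H2-Aa, chr17:34287824-34288073, minus strand: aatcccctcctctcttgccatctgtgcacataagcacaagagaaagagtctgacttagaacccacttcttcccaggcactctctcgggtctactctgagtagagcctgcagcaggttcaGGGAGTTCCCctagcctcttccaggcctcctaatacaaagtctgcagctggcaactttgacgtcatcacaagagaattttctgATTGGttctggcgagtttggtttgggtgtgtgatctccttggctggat

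In the B2m stretch the response element letters begin 139 bases and the NF-kappaB-like letters 125 bases before the RefSeq start, and the Y box letters stand on the minus strand 53 bases before it. H2-T22 has the response element letters 190 bases before its start and the Y box letters at 3 places. In H2-K1 the NF-kappaB-like letters read in both directions, 111 and 109 bases before the start, and H2-Aa has a like match at 131 and 130 bases. Windows of 300 bases, reaching 50 bases past the start, were found for 36 of the 53 genes. CCAAT was present in 31 of these 36 windows, against 37.4% of all 32851 windows, GAAANNGAA in 4 (B2m, Erap1, H2-T22 and H2-T23), against 8.56%, and TTCNNNGAA, the letters of the interferon-gamma activated site, in 3, against 8.30%. GGGNNTTTC was present in 4 windows, against 4.36% of all, and GGGNNNTCC in 11, against 17.8%. Of the 4 genes with GAAANNGAA, B2m, H2-T22 and H2-T23 were called higher in Trem2-/- cells and Erap1 was not called. The windows of H2-D1, H2-DMb1, H2-M3, H2-T-ps, Tap1 and Tapbp, all called higher in Trem2-/- non-foamy cells, held no GAAANNGAA. Other forms of this core were not searched, so a window without GAAANNGAA may still hold the response element. The same holds for the printed H2-K1 and H2-Aa stretches, where lower case does not mean that the element is absent. Whether the letters relate to the differences between the genotypes was not tested. The windows of H2-D1 and H2-K1 aligned over 228 columns with 90.4% identical letters, with the H2-K1 RefSeq start placed further upstream. These matches are letters in a window, and nothing was measured on binding.

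Levels of different genes were compared only after division by exonic length. In WT non-foamy cells B2m had 2124 CPM per kb of exon, H2-D1 192, Cd74 64.9 and H2-K1 60.3 CPM per kb, and the library values of the last pair overlapped. H2-M3, which presents formylated peptides, had 15.03 CPM per kb, H2-T22 13.5, Tapbp 11.9, Erap1 9.47 and H2-T23 7.53 CPM per kb. Tap1 (2.55 CPM per kb), Nlrc5 (3.08), H2-DMb1 (2.16) and H2-T24 (1.60) were lower, and Tap2 was at 0.710 CPM per kb.

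**Figure D1:**
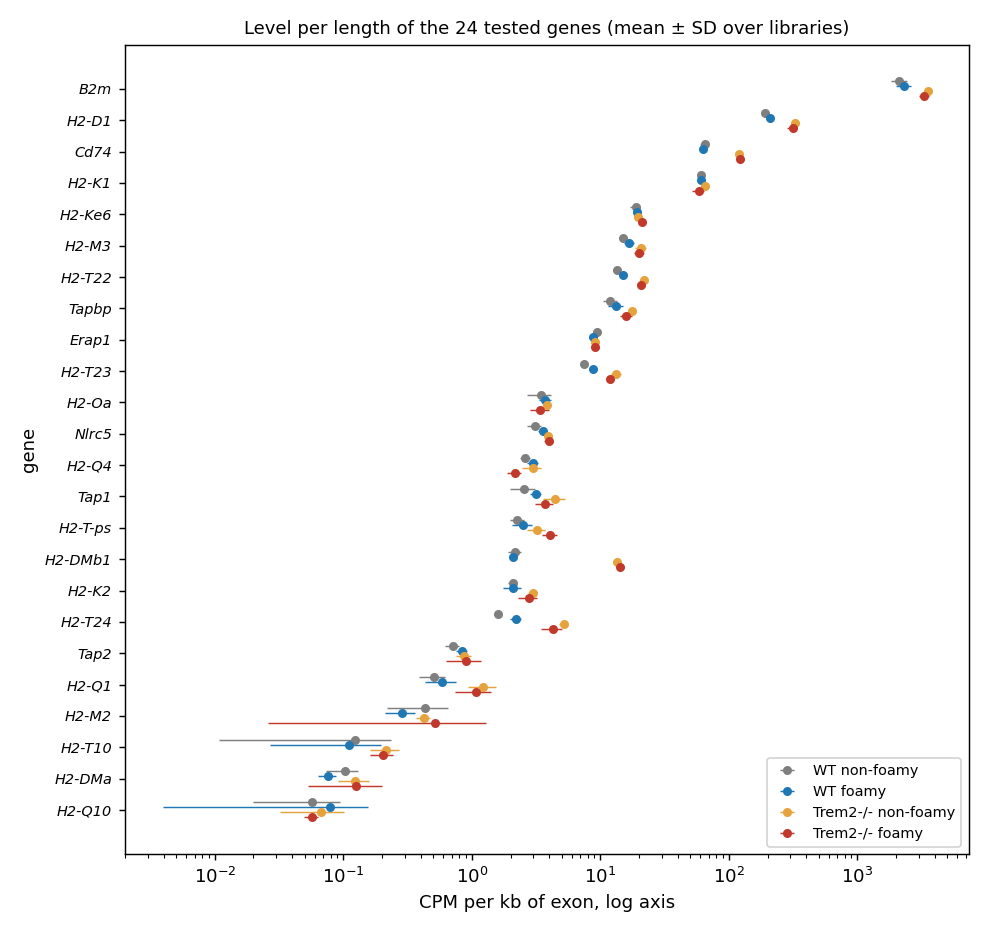
Mean level per length of the 24 tested genes in the 4 groups (x axis, CPM per kb of exon on a log axis, with bars of ± SD over 3 or 4 libraries, shortened on the left where they would come close to or pass 0, which a log axis cannot show). B2m lies highest at 2124 CPM per kb in WT non-foamy cells and 3551 CPM per kb in Trem2-/- non-foamy cells, and H2-DMb1 has the widest gap between WT and Trem2-/- groups.

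The first question was how the genes differed between Trem2-/- and WT cells without cholesterol. In Trem2-/- non-foamy cells 14 of the 24 tested genes were higher and none was lower (edgeR quasi-likelihood test, Benjamini-Hochberg adjusted p under 0.05, here "called"), where 43.6% of all 14237 tested genes were called, 21.0% higher and 22.6% lower. The median log2 fold change was 0.50 over the 24 genes and 0.02 over all tested genes. In foamy cells 13 were called, 12 higher and 1 lower (H2-Q4), against 30.2% of all genes, 14.3% higher and 15.9% lower. There the medians were 0.42 and 0.00. Scaling by total counts alone, which moved the median log2 fold change of all genes to −0.13 in both comparisons, called 11 higher and 1 lower (Erap1, −0.19, adjusted p = 0.00967, edgeR) in non-foamy cells and 9 higher and 1 lower in foamy cells. Over all called genes that scaling lowered the share of higher calls from 48.1% to 29.4% and from 47.4% to 23.3%.

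**Figure D2:**
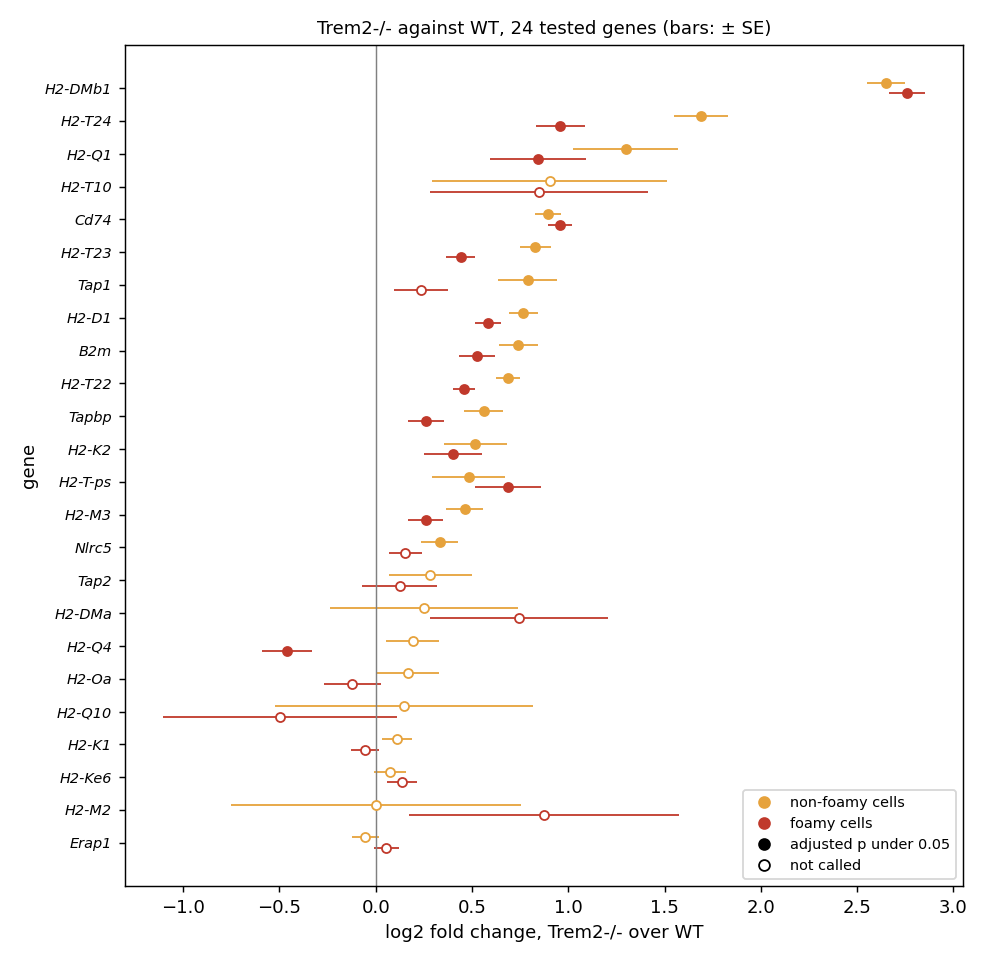
Log2 fold change of Trem2-/- over WT for the 24 tested genes (x axis), in non-foamy (orange) and foamy cells (red), with bars of ± SE and filled points for an adjusted p under 0.05. H2-DMb1 lies at 2.65 and 2.76, H2-K1 close to 0 in both, and H2-Q4 is the only filled point left of 0.

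Of the classical class I genes, H2-D1 was higher in Trem2-/- cells and H2-K1 was not called. H2-D1 (chr17:35262730-35267499, plus strand) was at 488, 527, 470 and 499 CPM in WT non-foamy, 570, 562, 497 and 526 CPM in WT foamy, 857, 790 and 885 CPM in Trem2-/- non-foamy and 863, 847, 815 and 706 CPM in Trem2-/- foamy libraries. All 7 Trem2-/- libraries lay above all 8 WT libraries. The log2 fold change was 0.77 (SE 0.07, adjusted p = 1.94e-08, edgeR) in non-foamy and 0.58 (SE 0.07, adjusted p = 1.15e-06) in foamy cells. H2-K1 (chr17:33996017-34000347, minus strand) was at 173, 194, 169 and 173 CPM in WT non-foamy, 189, 177, 170 and 176 CPM in WT foamy, 198, 176 and 200 CPM in Trem2-/- non-foamy and 186, 178, 176 and 145 CPM in Trem2-/- foamy libraries. The groups overlapped. Its log2 fold change had a 95% interval of −0.05 to 0.27 in non-foamy and −0.21 to 0.09 in foamy cells.

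The ratio of H2-D1 to H2-K1 counts within a library, which needs no scaling between libraries, was 2.72 to 2.88 in WT non-foamy and 4.33 to 4.49 in Trem2-/- non-foamy libraries. In foamy cells it was 2.92 to 3.17 in WT and 4.63 to 4.88 in Trem2-/- libraries. The mean log2 ratio was 0.66 and 0.65 higher in Trem2-/- cells. The ratio was chosen after the values of both genes were seen, so it is a description without a test. Reads may be split between these similar genes, since 12.8% of the 50-base stretches of H2-D1 and 9.63% of those of H2-K1 occur in another gene's transcripts.

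**Figure D3:**
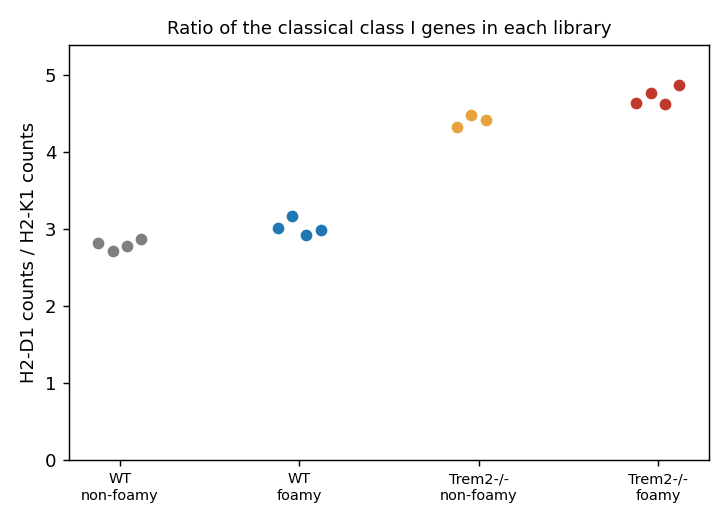
Ratio of H2-D1 to H2-K1 counts (y axis, no unit) in each of the 15 libraries by group (points). The WT libraries lie between 2.72 and 3.17 and the Trem2-/- libraries between 4.33 and 4.88.

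Among the 30 non-classical class I genes and pseudogenes, 11 were tested, and 7 of these 11 were higher in Trem2-/- cells in each comparison. Of all tested genes 21.0% were higher in non-foamy and 14.3% in foamy cells. H2-T24 (chr17:36005695-36020560, minus strand) was at 3.55, 3.51, 3.48 and 3.44 CPM in WT non-foamy, 4.83, 5.06, 5.14 and 4.09 CPM in WT foamy, 10.3, 11.3 and 12.2 CPM in Trem2-/- non-foamy and 7.70, 8.62, 9.21 and 11.8 CPM in Trem2-/- foamy libraries. All Trem2-/- libraries lay above all WT libraries, and WT foamy above WT non-foamy ones. Its log2 fold change was 1.69 (SE 0.14, adjusted p = 1.67e-09, edgeR) in non-foamy and 0.96 (SE 0.13, adjusted p = 4.98e-06) in foamy cells.

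H2-T23 encodes Qa-1, a ligand of natural killer cell receptors. It was at 22.6, 21.5, 22.8 and 20.0 CPM in WT non-foamy, 24.3, 25.4, 25.2 and 25.7 CPM in WT foamy, 41.7, 34.9 and 39.2 CPM in Trem2-/- non-foamy and 35.1, 36.9, 31.8 and 33.0 CPM in Trem2-/- foamy libraries. Again no Trem2-/- library lay within the WT range, with log2 fold changes of 0.83 (SE 0.08, adjusted p = 2.25e-08, edgeR) and 0.44 (SE 0.07, adjusted p = 1e-04). H2-T22, a ligand of some gamma-delta T cell receptors whose upstream sequence is printed above, was at 44.9, 44.7, 49.4 and 45.3 CPM in WT non-foamy, 49.0, 51.6, 52.7 and 51.3 CPM in WT foamy, 73.4, 71.0 and 77.7 CPM in Trem2-/- non-foamy and 71.3, 67.5, 68.1 and 74.6 CPM in Trem2-/- foamy libraries. The genotypes did not overlap, with log2 fold changes of 0.69 (SE 0.06, adjusted p = 7.79e-09, edgeR) and 0.46 (SE 0.06, adjusted p = 2.56e-06). H2-T22 shares 53.5% of its 50-base stretches with other genes, mainly H2-T10, and 29.4% of its exonic bases overlap A930015D03Rik on the opposite strand, so its counts are uncertain.

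H2-Q1 and H2-M3 were also higher. H2-Q1 was at 1.30, 1.90, 1.45 and 1.14 CPM in WT non-foamy, 1.93, 1.83, 1.01 and 1.97 CPM in WT foamy, 4.50, 2.85 and 3.21 CPM in Trem2-/- non-foamy and 2.08, 2.61, 4.27 and 3.27 CPM in Trem2-/- foamy libraries. The groups of each comparison did not overlap, with log2 fold changes of 1.30 (SE 0.27, adjusted p = 4.23e-04, edgeR) and 0.85 (SE 0.25, adjusted p = 0.0128). Without the third Trem2-/- foamy library the latter was 0.64 and not called (adjusted p = 0.0713, edgeR). H2-Q1 shares 15% of its 50-base stretches with other genes, among them the far higher H2-D1, so its counts are uncertain.
H2-M3 was at 21.6, 22.7, 22.5 and 19.7 CPM in WT non-foamy, 21.5, 25.9, 25.7 and 22.9 CPM in WT foamy, 28.6, 27.4 and 33.2 CPM in Trem2-/- non-foamy and 27.7, 30.8, 30.7 and 25.6 CPM in Trem2-/- foamy libraries. It had log2 fold changes of 0.46 (SE 0.10, adjusted p = 4.13e-04, edgeR) without overlap and 0.26 (SE 0.09, adjusted p = 0.0304) with overlapping groups. The latter was not called with total counts alone, nor without WT foamy replicate 1 or 4 or Trem2-/- foamy replicate 2 or 3 (0.13 to 0.24).

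The pseudogenes H2-K2 and H2-T-ps were called higher in both comparisons with less margin. H2-K2 was at 3.37, 3.35, 3.52 and 3.99 CPM in WT non-foamy, 4.23, 3.79, 2.87 and 3.41 CPM in WT foamy, 4.90, 4.84 and 5.59 CPM in Trem2-/- non-foamy and 4.67, 4.42, 5.82 and 4.01 CPM in Trem2-/- foamy libraries (log2 fold change 0.52, adjusted p = 0.0129, and 0.40, adjusted p = 0.0483, edgeR). H2-T-ps was at 2.59, 2.51, 1.98 and 2.59 CPM in WT non-foamy, 2.80, 2.89, 1.96 and 3.005 CPM in WT foamy, 3.39, 2.89 and 3.94 CPM in Trem2-/- non-foamy and 4.56, 4.96, 3.99 and 3.68 CPM in Trem2-/- foamy libraries (log2 fold change 0.48, adjusted p = 0.0418, and 0.69, adjusted p = 0.00369, edgeR). The foamy groups of H2-K2 overlapped, and H2-T-ps shares 29.4% of its 50-base stretches with other genes. The H2-K2 call in foamy cells was lost in 10 alternatives, among them leaving out any library of that comparison but WT replicate 1 and Trem2-/- replicate 4 (0.29 to 0.43). The H2-T-ps call in non-foamy cells was lost in 10 as well, among them leaving out any library but Trem2-/- replicate 2 (0.37 to 0.52), and the H2-K2 call in non-foamy cells was lost without the third Trem2-/- library (0.45) and with total counts alone (0.38, adjusted p = 0.0951, edgeR).

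H2-Q4 was the only one of the 24 genes called lower in Trem2-/- cells with TMM scaling. It was at 6.15, 7.47, 6.34 and 6.98 CPM in WT non-foamy, 8.53, 8.02, 6.79 and 7.47 CPM in WT foamy, 6.27, 8.01 and 8.87 CPM in Trem2-/- non-foamy and 6.34, 4.80, 5.92 and 5.31 CPM in Trem2-/- foamy libraries. The foamy groups did not overlap (log2 fold change −0.46, SE 0.13, adjusted p = 0.00851, edgeR), whereas the non-foamy groups did (log2 fold change 0.19, adjusted p = 0.275). Of its 50-base stretches 36.4% occur in other genes. H2-Q10, H2-T10 and H2-M2, at 0 to 2.56 CPM per library, were not called in either comparison.

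The counts of all 32 class I heavy chain genes and pseudogenes were also summed to a single feature. It pools reads split among these genes but not reads shared with genes outside them, such as Gm11127 and Gm7030. The sum was 782 ± 33.9 CPM (SD, n = 4) in WT non-foamy, 839 ± 40.6 CPM (n = 4) in WT foamy, 1212 ± 71.7 CPM (n = 3) in Trem2-/- non-foamy and 1141 ± 88.0 CPM (n = 4) in Trem2-/- foamy libraries. The lowest Trem2-/- library, at 1014 CPM, lay above the highest WT library, at 879 CPM. The log2 fold change was 0.63 (SE 0.07, adjusted p = 1.69e-07, edgeR) in non-foamy and 0.44 (SE 0.07, adjusted p = 2.12e-05) in foamy cells. H2-D1 made up 62.4% to 65.0% of the summed class I counts in WT and 69.6% to 71.3% in Trem2-/- libraries, and H2-K1 20.5% to 23.3% and 14.3% to 16.1%.

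B2m, the light chain of all these molecules, was higher in Trem2-/- cells in both comparisons. It was at 1705, 1714, 2200 and 1687 CPM in WT non-foamy, 1600, 2067, 2227 and 2022 CPM in WT foamy, 3077, 3156 and 2928 CPM in Trem2-/- non-foamy and 2874, 2609, 2762 and 3162 CPM in Trem2-/- foamy libraries. No Trem2-/- library lay within the WT range. The log2 fold change was 0.74 (SE 0.10, adjusted p = 3.18e-06, edgeR) in non-foamy and 0.53 (SE 0.10, adjusted p = 1.97e-04) in foamy cells.

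**Figure D4:**
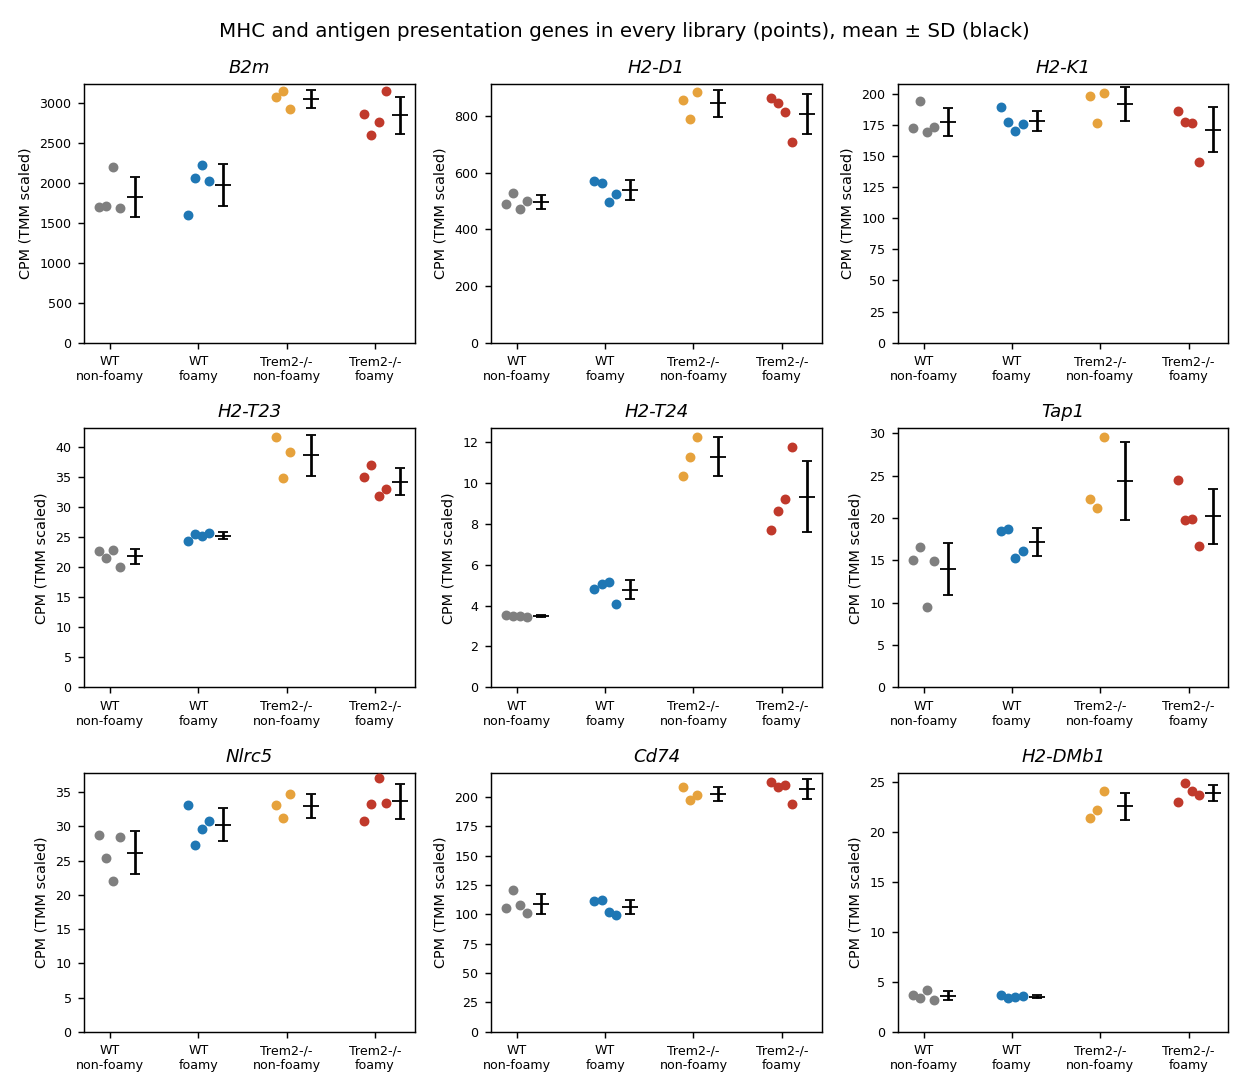
CPM after TMM scaling (y axes, each from 0) of 9 genes in every library, by group (points), with the mean ± SD in black. H2-DMb1, Cd74, B2m, H2-D1, H2-T23 and H2-T24 separate the 7 Trem2-/- from the 8 WT libraries, and H2-K1 lies between 145 and 200 CPM in all of them.

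Of the peptide supply genes, Tap1 and Tapbp were higher in Trem2-/- non-foamy cells, and Tap2 and Erap1 were called in neither comparison. Tap1 was at 15.02, 16.5, 9.46 and 14.9 CPM in WT non-foamy, 18.5, 18.7, 15.3 and 16.1 CPM in WT foamy, 22.3, 21.2 and 29.6 CPM in Trem2-/- non-foamy and 24.5, 19.7, 19.8 and 16.7 CPM in Trem2-/- foamy libraries. The foamy groups overlapped. The log2 fold change was 0.79 (SE 0.15, adjusted p = 1.92e-04, edgeR) in non-foamy and 0.24 (SE 0.14, adjusted p = 0.224) in foamy cells. Tapbp was at 42.7, 47.3, 35.6 and 46.8 CPM in WT non-foamy, 56.4, 49.1, 43.1 and 43.2 CPM in WT foamy, 61.6, 63.5 and 66.2 CPM in Trem2-/- non-foamy and 62.2, 60.9, 58.4 and 48.7 CPM in Trem2-/- foamy libraries. Its log2 fold changes were 0.56 (SE 0.10, adjusted p = 9.28e-05, edgeR) and 0.26 (SE 0.09, adjusted p = 0.0379), the latter with overlapping groups, and 29% of its exonic bases overlap other genes. The call in foamy cells was lost with total counts alone (0.13) and without WT replicate 2, 3 or 4 or Trem2-/- replicate 1, 2 or 3 (0.21 to 0.27). Tap2 lay between 1.89 and 4.01 CPM and Erap1 between 58.7 and 74.5 CPM in all libraries. The log2 fold change of Erap1 had a 95% interval of −0.20 to 0.09 in non-foamy and −0.08 to 0.19 in foamy cells.

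Nlrc5, the class I activator, was at 28.8, 25.4, 21.96 and 28.4 CPM in WT non-foamy, 33.1, 27.3, 29.6 and 30.8 CPM in WT foamy, 33.1, 31.2 and 34.7 CPM in Trem2-/- non-foamy and 30.7, 33.3, 37.1 and 33.4 CPM in Trem2-/- foamy libraries. The non-foamy groups did not overlap (log2 fold change 0.33, SE 0.09, adjusted p = 0.00643, edgeR) and the foamy groups did (0.15, SE 0.09, adjusted p = 0.197). With total counts alone the former was 0.19 and not called (adjusted p = 0.224). Ciita, its class II counterpart, had 48 counts over the 15 libraries, at most 0.342 CPM in a library, and was not tested.

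On the class II side, the chains themselves had no count in any library. The gene of their chaperone (Cd74) and the exchange genes H2-DMb1 and H2-Oa were present, whereas H2-DMa was low. Cd74 was at 106, 121, 108 and 101 CPM in WT non-foamy, 111, 112, 102 and 99.4 CPM in WT foamy, 209, 197 and 201 CPM in Trem2-/- non-foamy and 213, 209, 210 and 194 CPM in Trem2-/- foamy libraries. The genotypes did not overlap, with log2 fold changes of 0.89 (SE 0.07, adjusted p = 4.49e-10, edgeR) and 0.96 (SE 0.06, adjusted p = 1.76e-10). H2-DMb1 (chr17:34153072-34160230, plus strand), a beta chain of the H2-DM peptide exchanger, was at 3.71, 3.41, 4.18 and 3.19 CPM in WT non-foamy, 3.67, 3.37, 3.49 and 3.58 CPM in WT foamy, 21.4, 22.2 and 24.1 CPM in Trem2-/- non-foamy and 22.96, 24.8, 24.1 and 23.7 CPM in Trem2-/- foamy libraries. It was 6.28-fold higher in Trem2-/- non-foamy and 6.77-fold higher in Trem2-/- foamy cells (log2 fold change 2.65, SE 0.10, adjusted p = 9.44e-15, and 2.76, SE 0.09, adjusted p = 1.71e-15, edgeR). H2-DMb1 shares 22.7% of its 50-base stretches with the paralog H2-DMb2, which was at most at 0.315 CPM in any library.

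No other gene of the exchange group was called. The alpha chain gene H2-DMa was at 0.220 to 0.791 CPM and H2-Oa, a chain of the H2-DM inhibitor H2-O, at 4.12 to 6.34 CPM. On the opposite strand, Brd2 overlaps 10.4% of the exonic bases of H2-DMa and BC051537 overlaps 22.8% of those of H2-Oa, so their counts are uncertain. The 95% interval of the log2 fold change was −0.77 to 1.27 and −0.21 to 1.70 for H2-DMa and −0.17 to 0.51 and −0.43 to 0.19 for H2-Oa, in non-foamy and foamy cells. The partner H2-Ob was counted in 1 library, with 6 counts. The summed class II and exchange genes (10 genes) were at 8.86 ± 1.37 CPM (SD, n = 4) in WT non-foamy and 9.13 ± 0.631 CPM (n = 4) in WT foamy libraries. They were at 28.7 ± 1.44 CPM (n = 3) and 29.3 ± 1.004 CPM (n = 4) in the Trem2-/- groups, where H2-DMb1 made up 77.9% to 84.3% of the sum, against 36.1% to 45.0% in WT libraries. The log2 fold change of the sum was 1.71 (SE 0.10, adjusted p = 9.95e-12, edgeR) in non-foamy and 1.68 (SE 0.09, adjusted p = 1.48e-11) in foamy cells. H2-Ke6, whose symbol starts with H2- but which encodes a steroid dehydrogenase, was at 28.3 to 36.3 CPM and not called, and 86.4% of its exonic bases overlap Gm20427.

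The second question was the response to cholesterol, taken within each genotype. In WT cells none of the 24 genes was called by edgeR (4 at an unadjusted p under 0.05, and 1 by DESeq2), where 2.80% of all tested genes were called. In Trem2-/- cells none was called by edgeR either (4 at an unadjusted p under 0.05, and 0 by DESeq2), where 0.140% of all genes were called. The median log2 fold change of the 24 genes was 0.13 in WT cells, with 18 of 24 above 0, and −0.07 in Trem2-/- cells, with 9 of 24 above 0, against 0.01 and 0.00 over all genes. The gene called by DESeq2 was H2-T24, whose WT groups did not overlap. Its log2 fold change in WT cells was 0.45 (SE 0.13, adjusted p = 0.0696, edgeR, and 0.0335, DESeq2), with adjusted p from 0.0335 to 0.196 over the alternatives, and without the fourth WT foamy library it was 0.52 and called (adjusted p = 0.0426, edgeR). For H2-D1 the 95% interval of the log2 fold change was −0.02 to 0.26 in WT and −0.22 to 0.09 in Trem2-/- cells, and for Cd74 −0.17 to 0.09 and −0.11 to 0.17. For H2-DMb1 it was −0.24 to 0.19 and −0.11 to 0.27.

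**Figure D5:**
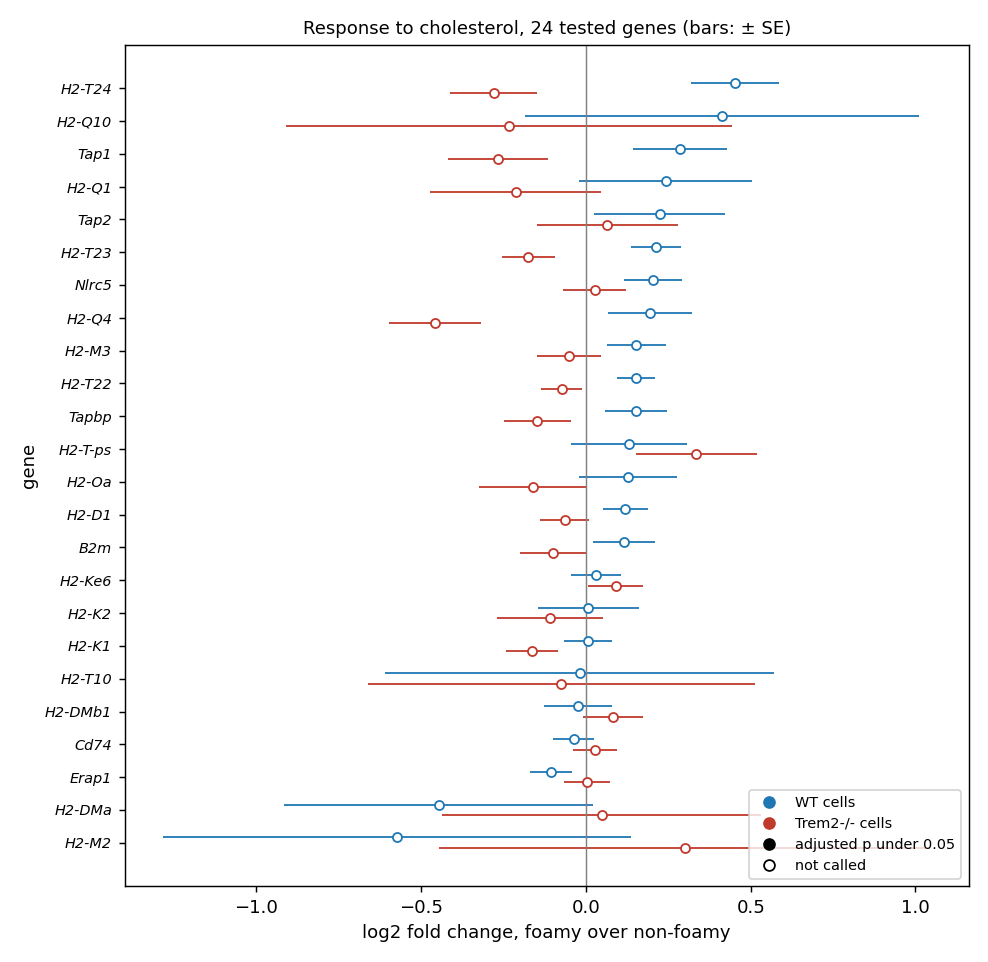
Log2 fold change of foamy over non-foamy cells for the 24 tested genes (x axis), in WT (blue) and Trem2-/- cells (red), with bars of ± SE, open points for genes not called. All points are open, and H2-T24 lies at 0.45 in WT and at −0.28 in Trem2-/- cells.

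The difference between the responses, Trem2-/- minus WT, was called for 1 of the 24 genes by edgeR (6 at an unadjusted p under 0.05, and 3 by DESeq2), where 3.64% of all genes were called. The median difference was −0.18 over the 24 genes, with 17 of 24 below 0, and −0.00 over all genes. The gene was H2-T24, with a log2 fold change of 0.45 in WT and −0.28 in Trem2-/- cells and a difference of −0.73 (SE 0.19, adjusted p = 0.0312, edgeR). That call was lost in 11 of the alternatives, namely with the replicate block (adjusted p = 0.0529) and without WT non-foamy replicate 1 or 4, WT foamy replicate 2 or 3, any of the 3 Trem2-/- non-foamy libraries or Trem2-/- foamy replicate 1, 2 or 3 (difference −0.79 to −0.65, adjusted p 0.0514 to 0.0905, edgeR). H2-T23 (−0.39, SE 0.11, adjusted p = 0.0517, edgeR) and H2-Q4 (−0.65, SE 0.19, adjusted p = 0.0532, edgeR) missed the threshold and were called by DESeq2 (adjusted p = 0.0127 and 0.0184). The differences of Tap1 (−0.55, adjusted p = 0.150) and H2-DMb1 (0.11, adjusted p = 0.756) were not called by edgeR, but that of Tap1 was called with no filter on low counts.

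Of 43 further genes of the pathway, 41 were tested, and in non-foamy cells 14 were higher and 8 lower in Trem2-/- than in WT, where 21.0% of all tested genes were higher and 22.6% lower. In foamy cells 11 were higher and 5 lower, where 14.3% of all genes were higher and 15.9% lower. With total counts alone the counts were 9 higher and 13 lower, and 8 higher and 14 lower. That scaling called 6199 and 4781 of all 14237 tested genes, of which just 29.4% and 23.3% were higher, so lower calls prevailed over all genes too. Among them Cd274, the inhibitory ligand PD-L1, had log2 fold changes of 1.48 (SE 0.10, adjusted p = 4.44e-11, edgeR) and 0.90 (SE 0.09, adjusted p = 7.68e-08), and its response to cholesterol in WT cells was called (0.42, adjusted p = 0.0113). Ctss, a protease that trims the invariant chain, was higher by 1.12 (SE 0.08, adjusted p = 2.50e-10, edgeR) and 0.68 (SE 0.07, adjusted p = 4.26e-07). Ctsl, another lysosomal protease, was higher in foamy cells by 0.65 (SE 0.07, adjusted p = 1.71e-07, edgeR). The kinase Jak2 was higher by 0.97 (SE 0.11, adjusted p = 2.29e-07, edgeR) in non-foamy and 0.53 (SE 0.10, adjusted p = 3.86e-04) in foamy cells. Of the 9 tested interferon and lineage regulators, 6 were higher in non-foamy cells, but Ifngr1 and Jak1 were not called with total counts alone. In foamy cells 4 of them were higher and 1 was lower. Of the 4 class II processing genes 3 (Ctss, Ctsl and Lgmn) were higher in each comparison, as were 2 of the 4 co-stimulation genes, Cd274 and Cd86, but Cd86 was called in neither with total counts alone (0.08, adjusted p = 0.336, and 0.14, adjusted p = 0.0996, edgeR). In the opposite direction, 2 of the 7 class II promoter factors (Nfyb and Nfyc) were lower and none was higher in each comparison. Of the 5 peptide loading genes 1 was higher and 2 were lower (Calr and Pdia3) in non-foamy cells, and 1 was lower (Calr) in foamy cells.

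The largest decrease among these 41 genes was in Mr1, which presents vitamin B metabolites, with log2 fold changes of −1.47 (SE 0.10, adjusted p = 2.86e-10, edgeR) and −1.999 (SE 0.10, adjusted p = 1.31e-12). Cd1d1, which presents lipids, was lower in non-foamy cells (−1.23, SE 0.49, adjusted p = 0.0431, edgeR). Its means there were low, at 0.278 CPM in Trem2-/- and 0.668 CPM in WT cells. In foamy cells Cd1d1 was not called (−1.01, adjusted p = 0.0986, edgeR), but was with total counts alone (−1.13, adjusted p = 0.0492, edgeR). The Y box factor gene Nfyb was lower in non-foamy cells (−0.55, SE 0.12, adjusted p = 6.34e-04, edgeR). In foamy cells Calr, a chaperone of peptide loading, was lower (−0.34, SE 0.06, adjusted p = 1.29e-04, edgeR). Irf1, an interferon-induced activator of class I genes, was at 13.6 ± 1.04 CPM (SD, n = 4) in WT non-foamy and 21.1 ± 2.73 CPM (n = 3) in Trem2-/- non-foamy libraries and was called in both comparisons (0.64, adjusted p = 1.49e-05, and 0.51, adjusted p = 1.67e-04, edgeR). Irf8 was higher by 0.55 (adjusted p = 2.56e-06, edgeR) and 0.26 (adjusted p = 0.00650), the latter not called with total counts alone. Of the 5 immunoproteasome and activator genes only Psme1 was called in either comparison, and higher in both (0.21, adjusted p = 0.0203, and 0.24, adjusted p = 0.00795, edgeR), in neither with total counts alone, where Psme2 (−0.26) in non-foamy and Psmb8 (−0.25) in foamy cells were lower. The difference between the responses was called for Psmb5, a constitutive proteasome subunit (0.43, adjusted p = 0.0155, edgeR), and for Cd274 (−0.58), Mr1 (−0.53) and Ctss (−0.44).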

How the data were processed

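The authors deposited 1 table of raw read counts per library (whole numbers, not normalized). According to the study's methods and labels, total RNA libraries (TruSeq) were trimmed with Trimmomatic, aligned to GRCm38 with HISAT2 and counted with featureCounts. How strand and multiply matching reads were treated is not given in the sources used here. Counts were scaled with TMM factors (0.918 to 1.11), filtered with filterByExpr (minimum count of 10) and fitted for all 15 libraries with 1 mean per group in edgeR 4.0.16 (glmQLFit and glmQLFTest, R 4.3.3), adjusted by Benjamini-Hochberg over 14237 genes and called at an adjusted p under 0.05. SE is the coefficient's standard error, and intervals are 95%. The fit was tested on simulated data. Lengths, overlaps and shared 50-base stretches came from GENCODE M21, promoter windows from RefSeq, aligned with Biopython. Genes and lists were chosen with earlier results of these data known. Called genes were named with every value, and of the 43 related genes the 3 called with the largest increase and decrease in each comparison, besides Irf1 and Irf8, were named, and 1 further gene is not reported here. Alternatives were DESeq2 1.42.0, RLE factors, total counts alone, no filter, a minimum of 10 counts per library, a fit of just the compared groups, a replicate block, and leaving out each library.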

Additional observations from a re-analysis of the deposited data

Results flagged for a closer look

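Of 72 groups of 4 libraries tested, 8 had a library far from the others, where chance flags about 1 in 20 groups. In the third WT non-foamy library, the shallowest (23538963 counts), B2m was at 2200 CPM (the others at 1687 to 1714), H2-T22 at 49.4 CPM (44.7 to 45.3) and H2-T-ps at 1.98 CPM (2.51 to 2.59). This library also differed from its replicates over all genes. The chi-square of the counts per gene was 22.8 to 29.5 for pairs with it and 5.25 to 6.12 for other WT non-foamy pairs. For WT foamy pairs it was 6.66 to 32.7. The cause was not tested. In the first WT foamy library Tap2 was at 3.62 CPM (2.95 to 3.01) and H2-Q10 at 0.845 CPM (0.143 to 0.245). In the third WT foamy library H2-Q1 was at 1.01 CPM (1.83 to 1.97) and H2-M2 at 0.611 CPM (0.367 to 0.401). In the fourth Trem2-/- foamy library Tap2 was at 1.89 CPM (3.77 to 4.01). The responses to cholesterol of H2-T24 differed between the genotypes by −0.73 on the log2 scale (adjusted p = 0.0312, edgeR).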

How the results depend on the processing

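Among the values of single genes and sums under the alternatives, 732 kept their direction and their side of the threshold, 47 lost and 13 gained the call, and 9 changed sign. The calls lost under an alternative were those of H2-T24 for the difference between the responses (11 alternatives), H2-K2 (10 in foamy and 2 in non-foamy cells), H2-T-ps in non-foamy cells (10), Tapbp (7), H2-M3 (5) and H2-Q1 (1) in foamy cells, and Nlrc5 in non-foamy cells (1). For the difference between the responses, 3 genes were called with no filter (Tap1, H2-Q4 and H2-T24), 3 with at least 10 counts in every library and 3 with DESeq2, and 0 to 2 when a library was left out. For the response in WT cells, DESeq2 called 1 gene and leaving out a library 0 to 1. With total counts alone the log2 fold change became −0.0297 for H2-K1 in non-foamy cells, and −0.0750 for Erap1 and −0.0042 for Tap2 in foamy cells. When a library was left out, that of H2-K1 in foamy cells ran from −0.10 to 0.0142 and the difference between the responses of the summed class II and exchange genes from −0.13 to 0.0244. The cause of these changes was not tested. With total counts alone the share of higher calls over all genes moved from 59.4% to 41.8% for the WT response and from 54.8% to 70.3% for the difference between the responses.

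For same-numbered libraries of different groups, the deviations from the group means correlated between −0.105 and 0.143 (21 pairs, 1 above 0.1), against −0.233 to 0.167 for 63 other pairs. The sources do not say whether such libraries shared a day or culture, and low correlations cannot decide it. With the replicate number as a block, 0 genes were called for the difference between the responses, 13 and 12 for the genotypes without and with cholesterol, and 0 for each response. The counts of 29 genes were too low for a test at this depth, and 15 of them had no count in any library.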
